A study of Mus musculus with 42 samples.

Results

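The collagen family of the mouse reproductive tract was followed across 14 groups of tissue and genotype. Its members were the probe sets with a single gene symbol that begins Col, a number, the letter a and a number. These were 46 probe sets of 44 genes, out of 28856 probe sets and 19938 genes with values, and all 44 genes matched a RefSeq gene. Col6a5 and Col6a6 each had 2 probe sets, which were averaged. By structure, 11 genes encode fibrillar chains, 9 fibril-associated chains, 6 chains of beaded filaments (type VI) and 6 chains of basement membrane networks (type IV). The rest were 4 transmembrane chains, 3 short-chain network chains (types VIII and X), 2 multiplexins, the anchoring fibril chain Col7a1, and Col26a1 and Col28a1.

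RNA of whole tissue pieces was measured on 42 Affymetrix whole-transcript arrays, 3 for each group, to characterise molecular changes in mutants of the Hoxa and Hoxd clusters. All mice were adults of 3 to 7 months on a CD1/129 background, and all females were in diestrus. AKO tissue was Hoxa9,10,11-/- and DKO tissue was Hoxd9,10,11-/-. AKDH tissue was Hoxa9,10,11-/-d9,10,11+/-, so it shared the Hoxa genotype of AKO. AHDK tissue was Hoxa9,10,11+/-d9,10,11-/-, so it shared the Hoxd genotype of DKO. WT tissue carried none of these alleles. Uterus and vas deferens were taken from all 5 genotypes, and oviduct and epididymis from AKO and WT. The sources used here do not give how the alleles were made or whether tissues came from the same animals. The mutants of a tissue were compared with the same 3 WT arrays.

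Collagens are trimers of chains that wind into a triple helix. Fibrillar types I, III and V give the stroma of the uterine and ductal walls its tensile strength, type VI forms beaded filaments around cells, and type IV forms the sheet under epithelium and around smooth muscle. Fibroblasts make most fibrillar collagen, whereas epithelial, endothelial and muscle cells also make type IV. Hox genes 9 to 11 of both clusters pattern the reproductive ducts along their length, and the regions in question differ in stroma and muscle.

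The start regions of 4 members are shown as examples, 2 of them a pair of neighbours and 2 from among the genes called repeatedly. The sequences are from RefSeq, build GRCm38.p6, and run from 250 bases before to 50 bases after the first base of the gene. Col4a1 (chr8:11312777-11313076, minus strand) and Col4a2 (chr8:11312555-11312854, plus strand) encode the 2 chains of the commonest type IV trimer and start 21 bases apart on opposite strands. Capitals mark the 78 bases that both windows hold, each printed on its own strand.
Col4a1: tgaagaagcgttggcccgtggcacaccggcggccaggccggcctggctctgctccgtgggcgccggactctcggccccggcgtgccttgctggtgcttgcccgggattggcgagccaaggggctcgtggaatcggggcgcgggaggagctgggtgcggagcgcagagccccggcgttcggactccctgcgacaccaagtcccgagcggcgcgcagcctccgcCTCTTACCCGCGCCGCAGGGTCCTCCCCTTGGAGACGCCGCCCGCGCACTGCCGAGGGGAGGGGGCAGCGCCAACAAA
Col4a2: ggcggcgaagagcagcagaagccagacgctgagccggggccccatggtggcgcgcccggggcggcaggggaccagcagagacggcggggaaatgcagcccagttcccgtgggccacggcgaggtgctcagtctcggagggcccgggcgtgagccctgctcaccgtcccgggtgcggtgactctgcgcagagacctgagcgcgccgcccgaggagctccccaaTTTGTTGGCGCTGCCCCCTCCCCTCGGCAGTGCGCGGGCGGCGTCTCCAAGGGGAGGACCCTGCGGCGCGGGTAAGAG
Col8a1 (chr16:57754688-57754987, minus strand) and Col17a1 (chr19:47691993-47692292, minus strand) were called in 4 and 3 comparisons. Capitals mark TTTAT or TTTAC, or their complements on the other strand, which are core letters that Hox proteins of the posterior groups bind. Col14a1, called as often as Col8a1, and Col26a1, called as often as Col17a1, had no window to print. Col18a1 and Col6a4, which are not printed, were also called as often as Col17a1. Both windows of Col18a1 hold 0 TTTAT and 0 TTTAC, and that of Col6a4 holds 2 and 0.
Col8a1: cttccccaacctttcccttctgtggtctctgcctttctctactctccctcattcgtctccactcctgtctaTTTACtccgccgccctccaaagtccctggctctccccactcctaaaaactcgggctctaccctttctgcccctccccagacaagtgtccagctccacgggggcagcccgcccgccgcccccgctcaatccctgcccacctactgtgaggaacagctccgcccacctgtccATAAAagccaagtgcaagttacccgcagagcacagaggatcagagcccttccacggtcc
Col17a1: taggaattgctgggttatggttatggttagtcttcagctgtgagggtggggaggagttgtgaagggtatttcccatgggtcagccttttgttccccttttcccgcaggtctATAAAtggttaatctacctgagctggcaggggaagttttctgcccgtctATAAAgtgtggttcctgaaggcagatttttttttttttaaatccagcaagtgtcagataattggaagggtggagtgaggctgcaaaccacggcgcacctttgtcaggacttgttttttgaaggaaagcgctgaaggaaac
Windows were in the table for 35 of the 44 genes, with 38 windows in all. TTTAT on either strand was in 12 of these (31.6%), against 40.0% of all 32851 windows. TTTAC was in 9 (23.7%), against 31.5% of all. The CG-rich GGGCGG was in 23 (60.5%), against 35.7%, CCAAT in 13 (34.2%), against 37.4%, and TATAAA, whose last letters are also a TTTAT match on the other strand, in 5 (13.2%), against 13.6%. A match is a description of these letters and not of binding.

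Values were log2 values, taken as such because the sources used here do not give the log base. Each probe set had a median of 0 over the 21 female and over the 21 male arrays, so a value is a distance from the middle array of its sex, and levels of different genes or sexes were not compared. A gene is described as called where limma gave an adjusted p below 0.05 across 19938 genes. P-values measure only the spread between these arrays, which the labels call biological replicates, and their small number limits the precision of every value. In whole tissue, fewer cells of a type and less RNA per cell cannot be told apart. Of the deleted genes, Hoxa11 was called lower in uterus AKDH (-2.78, adjusted p = 0.0161), in vas AKO (-1.51, adjusted p = 0.00961) and also in vas AKDH (-1.66, adjusted p = 0.0027), and Hoxd9 in vas DKO (-0.55, adjusted p = 0.00581) and vas AHDK (-0.49, adjusted p = 0.00885). Hoxa10 (-0.86, adjusted p = 0.0243) and Hoxd11 (-0.60, adjusted p = 0.0269) were also called lower in vas AKDH. Hoxa11 in uterus AKO was -2.56 (adjusted p = 0.112). No deleted gene was called lower in uterus AKO, DKO and AHDK, oviduct AKO or epididymis AKO, and the sources used here do not place these probe sets within each gene. Of the 42 arrays, 3 were left out together in an alternative fit: the array labelled WT oviduct replicate 2 had the female transcript Xist at -5.92, the Y-linked Eif2s3y at 2.09 and an ovary marker mean of 3.03, AKDH vas replicate 3 had a motile cilia mean of 0.897, and AKO epididymis replicate 1 had Col6a4 at 1.22, against 0.17 and 0.014 on the other AKO epididymis arrays. Other arrays were as far from their group in a marker list, such as AKDH vas replicate 2 with a skeletal muscle mean of 2.01 and WT oviduct replicate 1 with an adipocyte mean of 2.68. The motile cilia markers were called higher in oviduct than in uterus (5 of 5), and smooth muscle markers lower in epididymis than in vas (8 of 8).

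**Figure D1:**
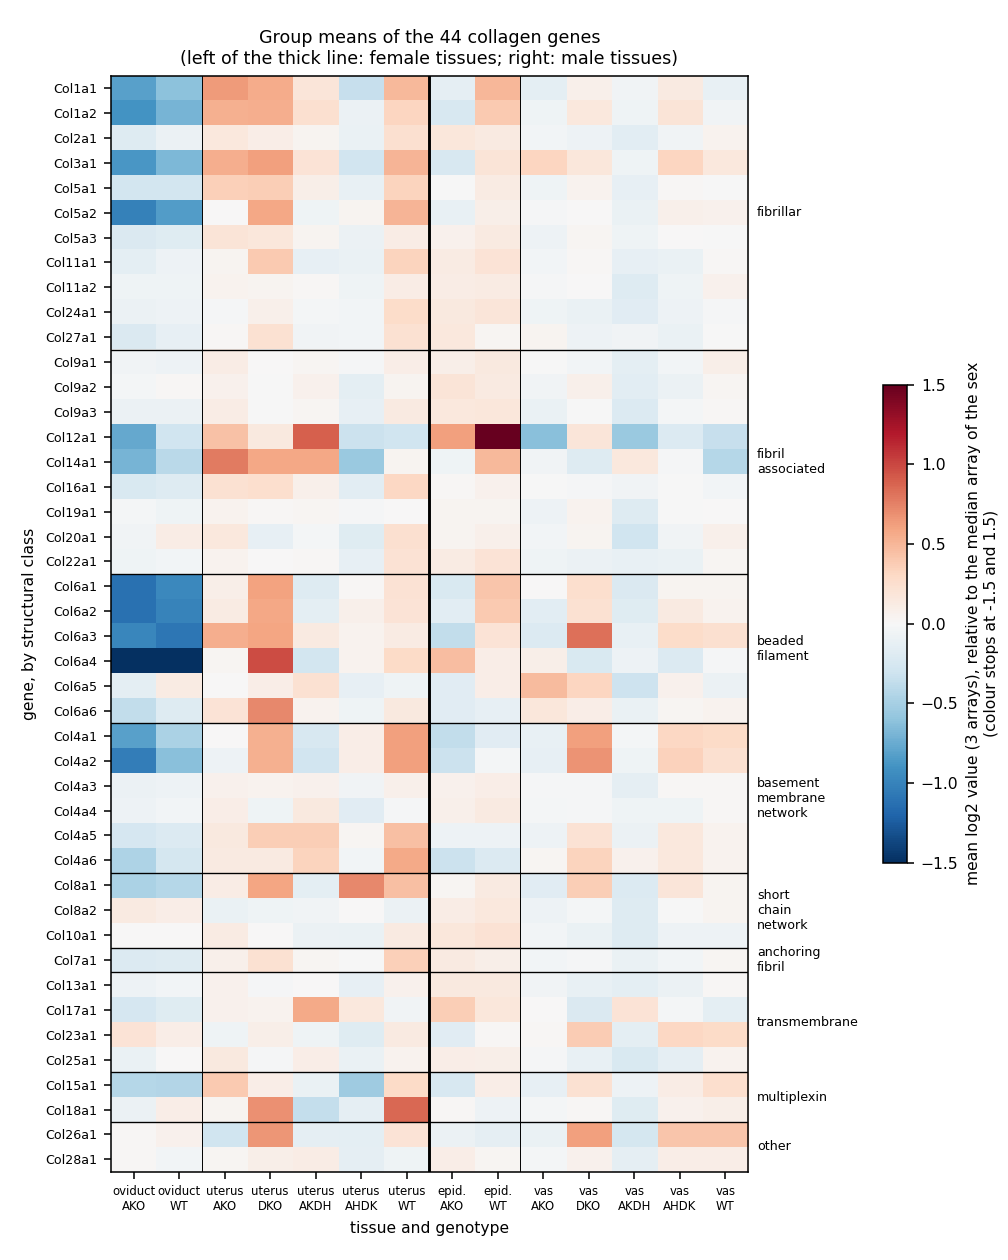
Mean log2 value of each of the 44 collagen genes (rows, by structural class) in the 14 groups (columns), as blue to red colour that stops at -1.5 and 1.5. Col1a1, Col3a1, Col6a1 and Col4a1 are blue in both oviduct groups, and Col12a1 is deep red in WT epididymis.

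The main stromal collagens varied together from array to array, also among arrays of the same group. In AKO oviduct Col1a1, a chain of type I, had values of -0.35, -0.22 and -1.88, against 0, -0.010 and -1.84 in WT oviduct. The third replicate was far below the others in both groups. Col3a1, the chain of type III, gave -0.53, -0.42 and -1.68 in AKO oviduct, against -0.18, 0.026 and -1.88 in WT oviduct. The mean of 8 interstitial collagens (both type I chains, Col3a1, Col5a1, Col5a2, Col6a1, Col6a2 and Col6a3, a set put together after their values were seen) was -0.55, -0.52 and -1.60 in AKO oviduct and -0.37, -0.23 and -1.71 in WT oviduct. The mean of 9 fibroblast markers was low on the same arrays, with -0.46, -0.28 and -1.20 in AKO oviduct and -0.066, -0.22 and -1.48 in WT oviduct. The part of these markers in the collagen values was not tested. In DKO uterus the same collagen mean was -0.34, 1.05 and 0.95, and in AKDH uterus -0.68, 0.22 and 0.62, so that replicate 1 lay low in both. Over the female arrays the median SD within groups was 0.20 for the 44 collagens and 0.14 for all genes, and 14 collagens lay above the 90th percentile of all genes. Over the male arrays these medians were 0.13 and 0.12, with 5 collagens above the 90th percentile. Col12a1, a fibril-associated chain, had the widest spread of the family in both sexes, 0.90 in females and 0.55 in males.

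**Figure D2:**
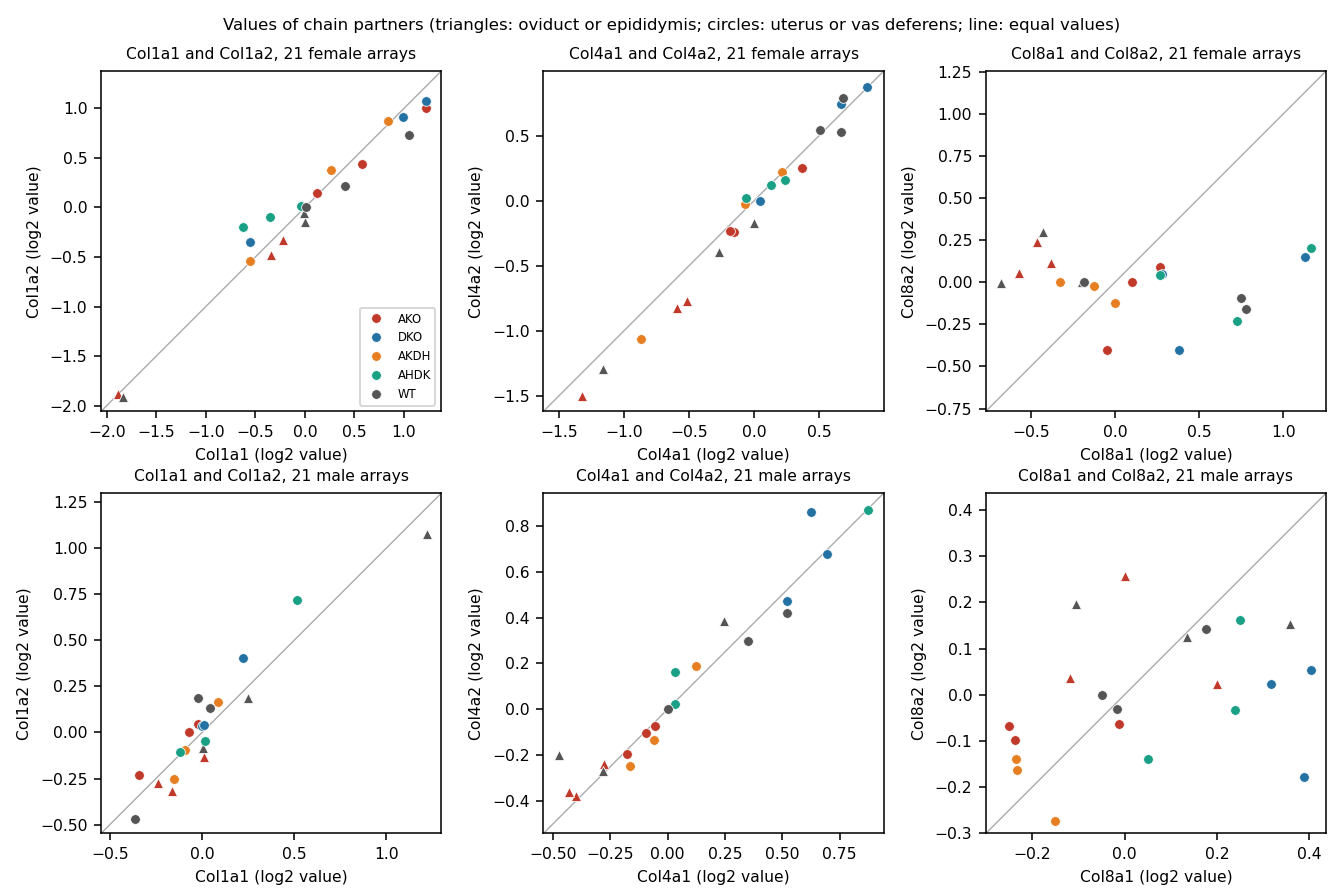
Log2 values of 3 pairs of chains that can share a trimer, each point 1 array, with female arrays above and male arrays below and a grey line for equal values. Col1a1 with Col1a2 and Col4a1 with Col4a2 lie near the line, and Col8a1 with Col8a2 do not.

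Some pairs of chains of the same collagen type lay close together from array to array, and others did not. Col4a1 and Col4a2, whose start regions are printed above, differed by a median of 0.091 on the 21 female arrays and 0.048 on the 21 male arrays, while Col4a1 itself ranged over 2.19 and 1.35. Col6a1 and Col6a2 differed by a median of 0.054 and 0.064, and Col1a1 and Col1a2 by 0.11 and 0.089. Col4a3 and Col4a4 differed by 0.075 and 0.049, Col4a5 and Col4a6 by 0.11 and 0.13, and Col9a1 and Col9a2 by 0.084 and 0.081. Col9a1 itself ranged over only 0.47 and 0.50, and genes of narrow range lie close whatever the pair. Other pairs were wider on the female arrays: Col5a1 and Col5a2 differed by 0.34 and 0.068, and Col6a1 and Col6a3 by 0.29 and 0.24. On the male arrays Col5a1 and Col5a2 were as close as the pairs above, and Col6a1 and Col6a3 were wider. Col6a4 and Col6a3, listed as chains of the same type and not as partners in a trimer, differed by 0.33 and 0.47. Col8a1 and Col8a2, both type VIII chains, were apart, with a median difference of 0.49 in females and 0.15 in males, and after removal of group means their values had a Pearson r of 0.23 and 0.12. For Col4a1 and Col4a2 that r was 0.98 and 0.94, for Col6a4 and Col6a3 0.91 and 0.063, and for Col9a1 and Col9a2 0.79 and 0.53. Closeness was not particular to chains of the same type. Col9a1 and Col19a1 differed by a median of 0.059 in females and 0.10 in males, with an r of 0.81 and 0.22. Col3a1 and Col5a2 differed by 0.34 and 0.12, with an r of 0.93 and 0.78. Arrays share tissue dissection and hybridisation, and these are descriptions across 21 arrays with no p. By the same measure, the genes outside the family most like the mean of Col1a1, Col1a2 and Col3a1 were Obsl1 (0.97), Sparc (0.96), Numbl (0.95), Dnm1 (0.94) and Adamts12 (0.94) in females, and Gas6 (0.93), Kcnd2 (0.93), Pam (0.91), Lrp1 (0.90) and Tmem119 (0.89) in males. Sparc encodes a collagen-binding matrix protein.

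In uterus, with probe sets of a gene averaged, Col18a1 was the only collagen called in a mutant, and it fell in AKDH. When probe sets were fitted singly by limma, 1 of the 2 of Col6a5 was called higher in AKDH (0.45, adjusted p = 0.0375). The other was not (0.16, adjusted p = 0.391). Col18a1 is the multiplexin of epithelial and vessel basement membranes whose end fragment is endostatin. Its values were -0.18, 0.40 and -0.12 on the AKO arrays, 0.32, 0.65 and 1.09 on the DKO arrays, -0.65, -0.33 and -0.086 on the AKDH arrays and -0.31, 0 and -0.12 on the AHDK arrays, against 1.03, 0.34 and 1.22 on the WT arrays. All AKDH and AHDK arrays lay below all WT arrays, AKO overlapped WT on 1 array, and DKO lay within the WT range or just under it. The log2 difference was -1.22, SE 0.25, adjusted p = 0.0183 in AKDH, and neither AHDK (-1.0, SE 0.25, adjusted p = 0.0512) nor AKO (-0.83, SE 0.25, adjusted p = 0.255) nor DKO (-0.18, adjusted p = 0.808) passed by limma. Of all genes, 6.58% were called in AKDH and 2.65% were called lower, and 1 of 44 collagens is a smaller share than that. The call in AKDH was lost without WT uterus replicate 1 (0.0503), WT uterus replicate 3 (0.061) and AKDH uterus replicate 1 (0.0573), where the brackets hold the adjusted p. In AHDK, Col18a1 was called without WT uterus replicate 2 (adjusted p = 0.0294), and Col20a1 without AHDK uterus replicate 2 (adjusted p = 0.0464), when 2 collagens were called.

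Small nucleolar and Cajal body RNA genes moved with these groups. Their mean over 54 genes was -0.20, -0.46 and -0.40 in AKDH, against 1.00, 0.59 and 0.68 in WT, and 36 of the 54 were called lower. With that mean as a covariate Col18a1 in AKDH was -0.85 (adjusted p = 0.897), in a fit in which the mean itself separates the groups. Mesothelium markers were called higher in AKDH uterus (2 of 4), with a mean of 0.30, -0.45 and 0.39 in AKDH, against -0.23, -1.42 and -1.17 in WT. In the same comparison 1 of 5 endothelium markers was called lower and 1 of 4 bladder urothelium markers higher, and the part of these lists in the Col18a1 call was not tested. Macrophage markers were called higher in AHDK uterus (3 of 4). Their part in the collagen values was not tested.

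The stromal chains showed no called change in the uterine mutants. Col1a1 had values of 0.57, 1.22 and 0.12 on the AKO arrays, -0.55, 1.22 and 0.99 on the DKO arrays, -0.56, 0.27 and 0.84 on the AKDH arrays and -0.63, -0.35 and -0.043 on the AHDK arrays, against 0.40, 0.015 and 1.05 on the WT arrays. Col3a1 had 0.40, 1.11 and 0.13 on the AKO arrays, -0.48, 1.15 and 1.17 on the DKO arrays, -0.41, 0.087 and 0.93 on the AKDH arrays and -0.57, 0 and -0.28 on the AHDK arrays, against 0.54, -0.040 and 1.02 on the WT arrays. Groups overlapped for both genes, apart from Col1a1 in AHDK, which lay under all WT values (log2 difference -0.83, SE 0.48, adjusted p = 0.342). Col6a1, a type VI chain, had 0, 0.18 and 0.074 on the AKO arrays, -0.18, 0.99 and 1.01 on the DKO arrays, -1.07, 0.24 and 0.23 on the AKDH arrays and -0.12, 0.15 and 0.029 on the AHDK arrays, against 0.11, -0.14 and 0.67 on the WT arrays, and every mutant overlapped WT. The basement membrane chain Col4a1 had -0.15, 0.36 and -0.19 on the AKO arrays, 0.048, 0.87 and 0.67 on the DKO arrays, -0.87, -0.073 and 0.22 on the AKDH arrays and 0.13, 0.24 and -0.063 on the AHDK arrays, against 0.66, 0.51 and 0.69 on the WT arrays. Its AKO, AKDH and AHDK values all lay below WT, and none of these differences passed (-0.61, adjusted p = 0.498 in AKO, -0.86, adjusted p = 0.0767 in AKDH and -0.52, adjusted p = 0.286 in AHDK).

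Most collagen means lay below WT in the uteri that carry alleles of both clusters, although Col18a1 in AKDH alone passed. In AHDK uterus 41 of 44 had a mean below WT, with a median log2 difference of -0.26, against -0.024 over all genes. In AKDH uterus it was 33 of 44, with a median of -0.20, against -0.013 over all genes. In AKO and DKO uterus 25 and 22 were below WT, with medians of -0.019 and -0.012, against 0.012 and 0.015. By limma no collagen was called in AKO, DKO or AHDK uterus, where 0.0903%, 0.973% and 3.53% of all genes were called. At an unadjusted p below 0.05 there were 5 collagens in AKO, 2 in DKO and 9 in AHDK, against 9.35%, 15.3% and 21.4% of all genes. Among the smallest adjusted p-values were Col20a1, a fibril-associated chain, in DKO (-0.37, SE 0.11, adjusted p = 0.141) and in AHDK (-0.42, SE 0.11, adjusted p = 0.0599), Col22a1, another fibril-associated chain, in DKO (-0.21, SE 0.092, adjusted p = 0.299), and Col26a1 in AKO (-0.51, SE 0.21, adjusted p = 0.468).

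Between mutants of the uterus no collagen was called by limma: DKO against AKO had 5 at an unadjusted p below 0.05, AKDH against AKO 2 and AHDK against DKO 8, against 13.6%, 10.3% and 7.47% of all genes. After adjustment 0.186%, 0.0% and 0.0251% of all genes were called. Col26a1, which encodes a secreted protein with short collagen stretches known from testis and ovary, gave 0.42, 0.77 and 0.79 in DKO, against -0.53, -0.25 and -0.13 in AKO. All DKO arrays were above all AKO arrays (0.96, SE 0.21, adjusted p = 0.0944). It also had the smallest adjusted p of the family in AHDK against DKO (-0.81, adjusted p = 0.406), followed by Col11a1, a minor fibrillar chain (-0.50, adjusted p = 0.429). In AKDH against AKO the leading genes were Col17a1, a transmembrane chain of epithelial hemidesmosomes (0.50, adjusted p = 0.373), and Col6a5 (0.23, adjusted p = 0.391).

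**Figure D3:**
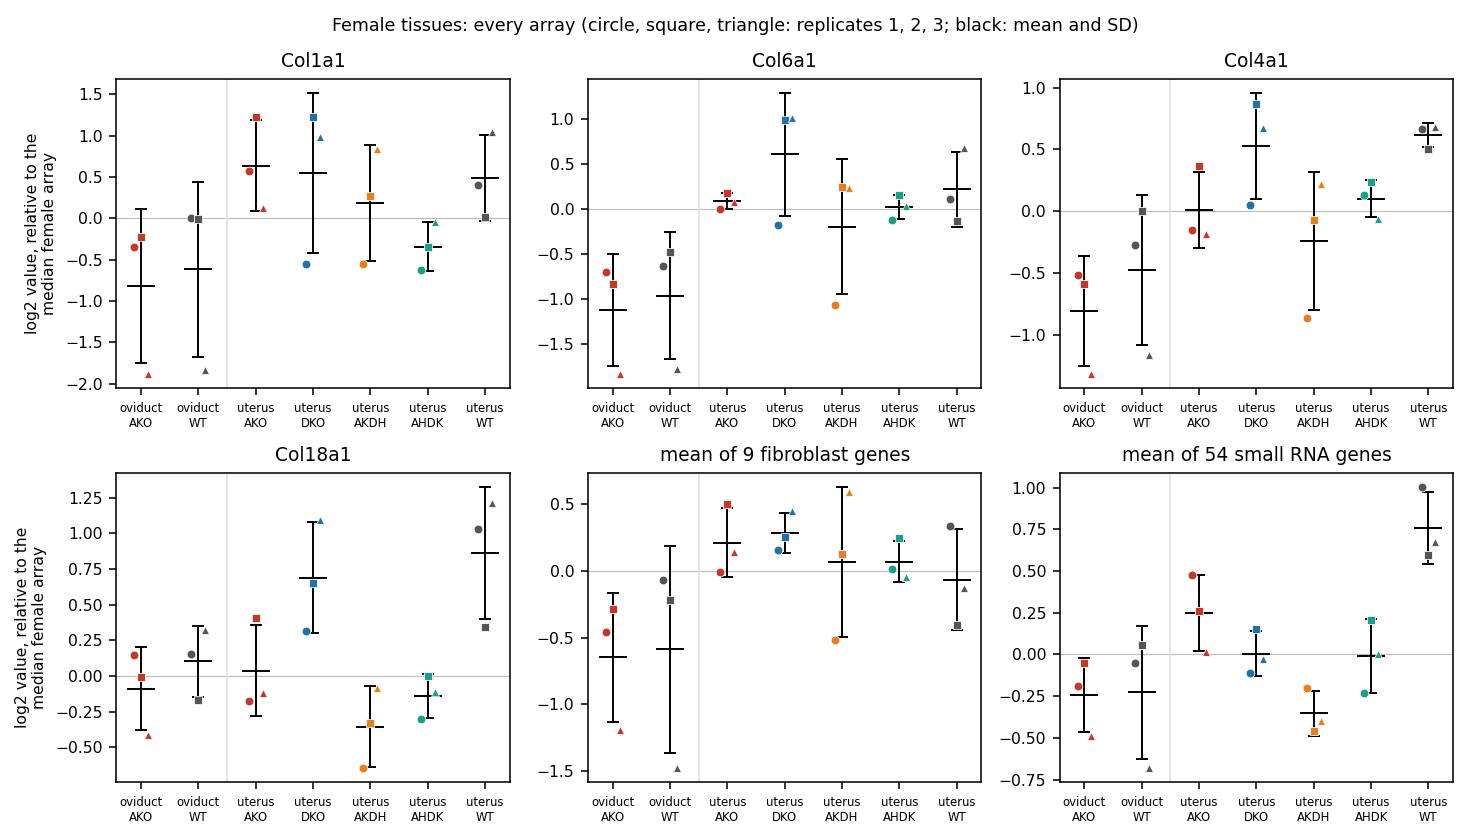
Log2 value on every female array for Col1a1, Col6a1, Col4a1 and Col18a1, and the means of 9 fibroblast and 54 small RNA genes, with oviduct groups left of uterus groups and black bars for the mean and SD of 3 arrays. Oviduct replicate 3 (triangles) is lowest for Col1a1, Col6a1, Col4a1 and the fibroblast mean, and Col18a1 in AKDH uterus lies under all WT uterus arrays.

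Oviduct had lower values of many collagens than uterus. Between the WT tissues 11 of 44 collagens were called lower in oviduct and none higher, against 23.9% of all genes called, 9.39% lower and 14.5% higher. In all 41 of 44 means were below uterus, with a median log2 difference of -0.34, against -0.025 over all genes. The called genes came from most classes: 3 of 11 fibrillar, 2 of 9 fibril-associated, 1 of 6 type VI, 2 of 6 type IV, 1 of 3 short-chain, 1 of 2 multiplexins and the anchoring fibril chain.

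Col7a1, which anchors basement membrane to stroma, had values of -0.10, -0.16 and -0.32 in WT oviduct, against 0.22, 0.24 and 0.60 in WT uterus (-0.55, SE 0.11, adjusted p = 0.00219). Col5a2, a chain that regulates fibril diameter, had -0.47, -0.40 and -1.65 in WT oviduct, against 0.51, 0.27 and 0.76 in WT uterus (-1.35, SE 0.35, adjusted p = 0.00972). Col6a4, a type VI chain, had -1.38, -1.0 and -2.81 in WT oviduct, against -0.32, 0.46 and 0.72 in WT uterus (-2.02, SE 0.52, adjusted p = 0.0102). The groups did not overlap for any of these 3 genes, which the choice of genes with values required. Without regard to calls, 22 of 44 collagens and 39.9% of all genes did not overlap. Col6a4 had the largest difference of the family. Col4a2 had -0.40, -0.18 and -1.29 in WT oviduct, against 0.52, 0.54 and 0.79 in WT uterus (-1.24, SE 0.33, adjusted p = 0.012). Its neighbour Col4a1 had -0.27, 0 and -1.16 in WT oviduct, against 0.66, 0.51 and 0.69 in WT uterus (-1.10, SE 0.32, adjusted p = 0.0188). Col8a1, the short-chain collagen of vessel walls, had -0.43, -0.20 and -0.68 in WT oviduct, against -0.18, 0.75 and 0.78 in WT uterus (-0.88, SE 0.27, adjusted p = 0.0233). By the same choice no oviduct array reached a uterus array for these genes. The other called falls were Col18a1 (-0.76, adjusted p = 0.034), the fibril-associated Col16a1 (-0.51, adjusted p = 0.0482) and Col22a1 (-0.26, adjusted p = 0.0316), and the minor fibrillar chains Col11a1 (-0.40, adjusted p = 0.0333) and Col27a1 (-0.35, adjusted p = 0.0356).

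Col1a1, Col3a1 and Col6a1 also had lower means in oviduct, and none passed the adjusted threshold. Col1a1 was -1.10 (SE 0.58, adjusted p = 0.189), Col3a1 -1.18 (SE 0.54, adjusted p = 0.132) and Col6a1 -1.18 (SE 0.42, adjusted p = 0.0516) in WT oviduct relative to WT uterus. Col6a1 gave -0.64, -0.48 and -1.78 in WT oviduct, against 0.11, -0.14 and 0.67 in WT uterus, with no overlap. Leaving out WT oviduct replicate 3, the array low in collagens and in fibroblast markers, left 2 collagens called, of which Col7a1 was 1 and Col18a1 the other, and the calls of the other 9 were lost (adjusted p 0.0656 to 0.195). The count was 6 without WT uterus replicate 1 and 5 without WT uterus replicate 3. Without WT oviduct replicate 2, the array with low Xist, it was 10, with Col16a1, Col18a1 and Col22a1 lost and others gained. Single calls were also lost without WT uterus replicate 1 (Col11a1, Col16a1, Col18a1, Col22a1 and Col27a1), WT uterus replicate 2 (Col16a1 and Col8a1), WT uterus replicate 3 (Col11a1, Col16a1, Col18a1, Col22a1, Col27a1, Col4a1 and Col8a1) and WT oviduct replicate 1 (Col18a1, Col27a1 and Col8a1). Col7a1 was called whichever array was left out. Small RNA genes (39 of 54 called lower in oviduct), 1 of 9 fibroblast markers and 1 of 5 endothelial markers (both lower), and 3 of 4 mesothelial markers (higher) moved with the same comparison, and their part was not tested.

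In AKO tissues, oviduct against uterus called 3 collagens lower and none higher, against 17.8% of all genes called and 7.09% called lower. Col14a1, a fibril-associated chain, had -0.37, -0.31 and -1.42 in AKO oviduct, against 1.00, 1.10 and 0.23 in AKO uterus (-1.48, SE 0.43, adjusted p = 0.0254). Col6a4 had -0.89, -1.60 and -2.65 in AKO oviduct, against -0.29, 0 and 0.38 in AKO uterus (-1.74, SE 0.52, adjusted p = 0.0297), and Col5a3, a type V chain, had -0.16, -0.12 and -0.39 in AKO oviduct, against 0.14, 0.31 and 0.14 in AKO uterus (-0.42, SE 0.14, adjusted p = 0.0454). None of the 3 overlapped. Called or not, 24 of 44 collagens and 37.7% of all genes did not overlap between these groups. A fit with the replicate number as a block called 4, with Col14a1 and Col6a4 shared, Col5a3 lost (adjusted p = 0.0506), and Col2a1 and Col4a2 gained. With an array left out the 3 calls fell to 0 to 2: Col14a1 was lost without AKO uterus replicate 1 (0.0865), AKO uterus replicate 2 (0.0853) and AKO oviduct replicate 3 (0.132), Col6a4 without AKO uterus replicate 1 (0.0512), AKO uterus replicate 2 (0.0638), AKO uterus replicate 3 (0.0876), AKO oviduct replicate 2 (0.0616) and AKO oviduct replicate 3 (0.153), and Col5a3 without any of the 6 arrays (adjusted p 0.0581 to 0.179). The test of the difference between the WT and the AKO contrast called no collagen (limma, 1 collagen and 4.25% of all genes at an unadjusted p below 0.05, with 0.0% of all genes called). Its leading genes were Col6a5 (-0.34, adjusted p = 0.9998) and Col18a1 (0.63, adjusted p = 0.9998).

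Within oviduct, no collagen was called between AKO and WT. Limma called none of the 44 and none of the 19938 genes (0.0%), with 0 collagens and 3.05% of all genes at an unadjusted p below 0.05. Col4a1 had -0.52, -0.59 and -1.32 in AKO, against -0.27, 0 and -1.16 in WT, and Col6a1 -0.70, -0.83 and -1.84 in AKO, against -0.64, -0.48 and -1.78 in WT. Same-numbered arrays of this comparison correlated by 0.22, 0.29 and 0.48 over all genes after removal of group means, with replicate 3 low in both groups. AKO and WT arrays come from different animals, and the labels give no link between them beyond the number. At each number AKO was the lower array for both genes. This did not hold for Col3a1, which had -1.68 on AKO replicate 3, against -1.88 on WT replicate 3. With the replicate number as a block limma again called 0 collagens. The smallest adjusted p-values without the block were those of the type VI chains Col6a5 (-0.27, SE 0.12, adjusted p = 0.993) and Col6a6 (-0.18, SE 0.098, adjusted p = 0.993).

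**Figure D4:**
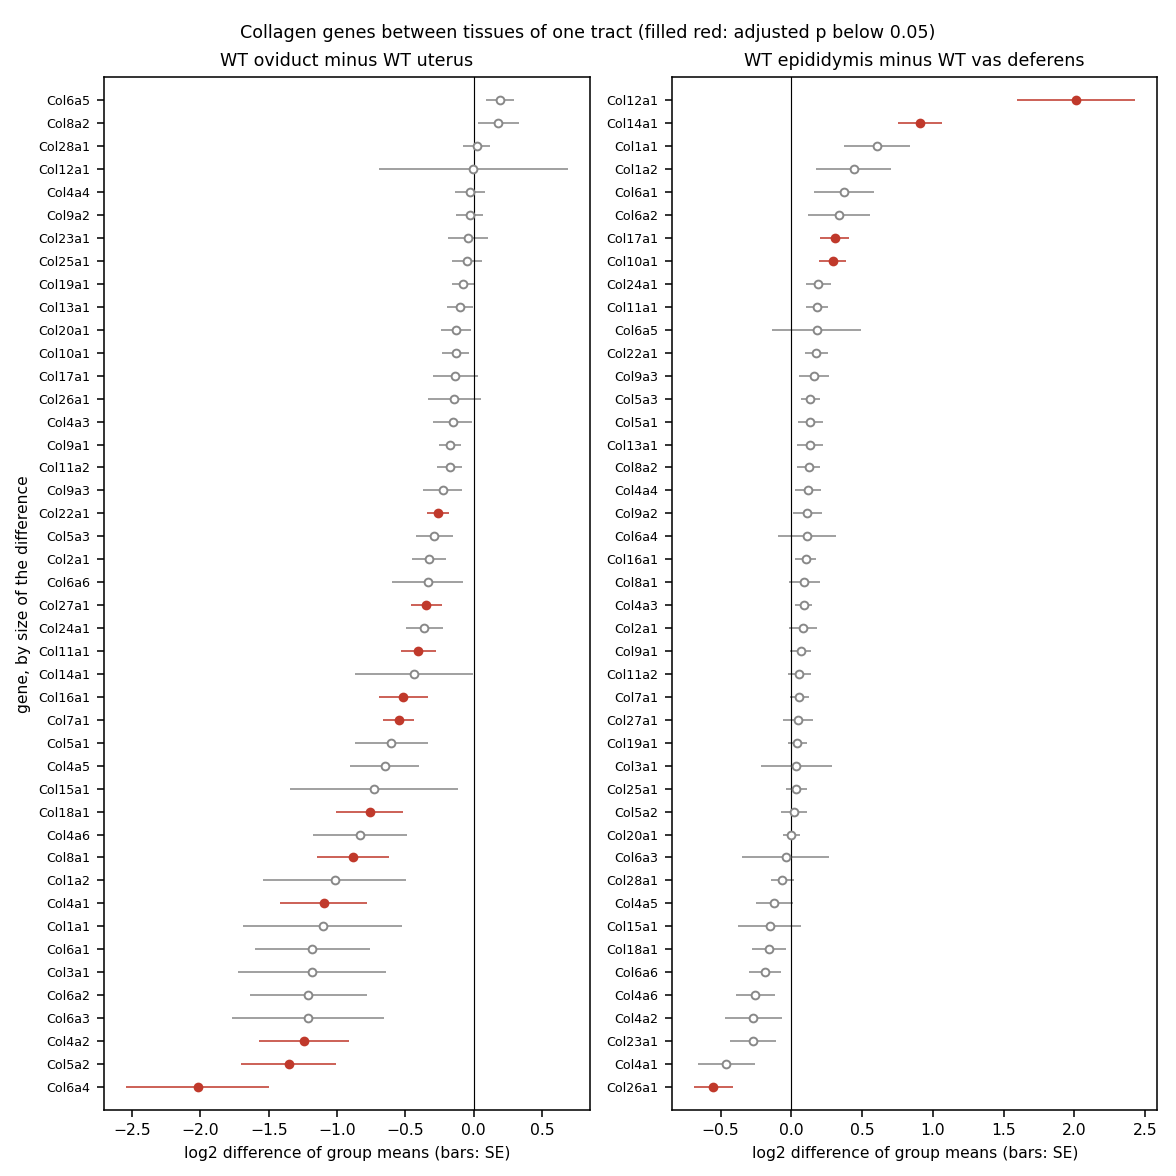
Log2 difference of group means with its SE for each of the 44 collagens, WT oviduct minus WT uterus on the left and WT epididymis minus WT vas deferens on the right, sorted by size, with called genes in filled red. On the left 41 of 44 lie below 0, with Col6a4 lowest. On the right 32 of 44 lie above 0, with Col12a1 highest and Col26a1 lowest.

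In vas deferens, AKDH had the most calls among the mutants, both in the family (10 of 44, or 22.7%) and over all genes (24.3%). DKO differed from AKO in 6 chains (13.6%), against 17.8% of all genes. Col26a1 had values of -0.26, -0.030 and 0 on the AKO arrays, 0.53, 0.74 and 0.56 on the DKO arrays, -0.40, -0.36 and -0.022 on the AKDH arrays and 0.38, 0.33 and 0.54 on the AHDK arrays, against 0.20, 0.25 and 0.80 on the WT arrays. The 6 arrays of AKO and AKDH, which lack Hoxa9 to Hoxa11, were below all 9 arrays of the other genotypes. Col26a1 fell in AKDH (-0.68, SE 0.15, adjusted p = 0.00772), and AKO lay lower without passing (-0.52, SE 0.15, adjusted p = 0.0546). DKO (0.20, adjusted p = 0.536) and AHDK (-0.0017, adjusted p = 0.999) overlapped WT. In AKO it was called in 4 of the 12 other settings run, with limma adjusted p from 0.0237 to 0.186. These 4 include the fit without WT vas replicate 1 (adjusted p = 0.0433) and that with the replicate number as a block (adjusted p = 0.0237). Same-numbered arrays of vas AKO and WT correlated by only 0.185, -0.053 and 0.149. In AKDH it was called whichever array was left out.

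Col8a1 ran the same way in AKO and AKDH and the other way in DKO. Its values were -0.013, -0.24 and -0.25 on the AKO arrays, 0.40, 0.32 and 0.39 on the DKO arrays, -0.15, -0.24 and -0.23 on the AKDH arrays and 0.051, 0.25 and 0.24 on the AHDK arrays, against -0.016, 0.18 and -0.049 on the WT arrays. The DKO arrays lay above, and the AKDH arrays below, all WT arrays. Relative to WT, Col8a1 rose in DKO (0.33, SE 0.081, adjusted p = 0.0363) and fell in AKDH (-0.24, SE 0.081, adjusted p = 0.0455), with AKO at -0.20, adjusted p = 0.148 and AHDK at 0.14, adjusted p = 0.406. It was the only collagen called in DKO, where 5.87% of all genes were called, 3.85% called higher. With the replicate number as a block the DKO call was lost (adjusted p = 0.0598). The DKO call held without WT vas replicate 2 and was lost without any other of the arrays compared (adjusted p 0.0724 to 0.117), and the AKDH call held only without WT vas replicate 3 (otherwise adjusted p 0.0634 to 0.177). By limma AKO and AHDK called no collagen, against 9.35% and 4.15% of all genes called. Both had 4 collagens at an unadjusted p below 0.05, against 23.0% of all genes in AKO and 17.7% in AHDK. In AHDK the leading genes were Col20a1 (-0.13, adjusted p = 0.213) and Col25a1, a transmembrane chain (-0.18, adjusted p = 0.217).

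Set directly against each other, DKO vas was called higher than AKO vas for 5 collagens and lower for 1, against 17.8% of all genes called, 11.4% higher and 6.37% lower. Col8a1 differed by 0.54, SE 0.081, adjusted p = 0.00112 and Col26a1 by 0.71, SE 0.15, adjusted p = 0.00763, with no overlap, and both were called in all 12 other settings run, which include each array left out. Col6a3, the large type VI chain, had 1.17, 0.54 and 0.77 in DKO, against 0.049, -0.15 and -0.52 in AKO (1.03, SE 0.23, adjusted p = 0.0101). Col4a2 had 0.86, 0.47 and 0.68 in DKO, against -0.072, -0.10 and -0.20 in AKO (0.79, SE 0.20, adjusted p = 0.0171), and Col4a1 had 0.62, 0.52 and 0.70 in DKO, against -0.055, -0.096 and -0.18 in AKO (0.72, SE 0.20, adjusted p = 0.0251). For all 3 genes every DKO array was above every AKO array. Called or not, 14 of 44 collagens and 42.4% of all genes did not overlap between DKO and AKO vas. Col6a4 was lower in DKO, with -0.27, -0.24 and -0.18, against 0.15, 0.0056 and 0.10 in AKO (-0.32, SE 0.083, adjusted p = 0.0208), so that Col6a3 and Col6a4, both type VI chains, moved in opposite directions. The calls of Col4a1 were lost without any of the 6 arrays (adjusted p 0.0507 to 0.0793), those of Col4a2 without AKO vas replicate 3 (0.0582) and DKO vas replicate 1 (0.07), and those of Col6a4 without AKO vas replicate 1 (0.077), AKO vas replicate 3 (0.0646), DKO vas replicate 1 (0.073) and DKO vas replicate 2 (0.0587). The count of 6 fell to 3 without AKO vas replicate 3 or DKO vas replicate 1. The type VI partner Col6a1 had 0.034, -0.021 and 0 on the AKO arrays, 0.43, 0.11 and 0.19 on the DKO arrays, -0.00080, -0.28 and -0.36 on the AKDH arrays and -0.32, 0.54 and -0.12 on the AHDK arrays, against 0.25, 0.24 and -0.36 on the WT arrays, and was called nowhere in vas.

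Smooth muscle markers moved with these differences. Their mean over 8 genes was 0.73, 0.49 and 0.67 in DKO vas, against 0.0020, 0.083 and -0.35 in AKO vas, and 6 of 8 were called higher in DKO. It was -0.079, -0.35 and -0.44 in AKDH, against 0.72, 0.67 and 0.29 in WT, and 7 of 8 were called lower. Adipocyte markers were called higher than WT in AKDH (7 of 7), AHDK (7 of 7) and AKO (5 of 7), and lower in DKO than in AKO (4 of 7). With the adipocyte mean as a covariate 2 of the 6 calls between DKO and AKO remained, Col8a1 and Col26a1, and 1 of the 10 in AKDH, Col20a1, in fits in which that mean itself separates the groups (it was 1.67, 1.30 and 1.44 in AKDH, against -1.08, -0.43 and 0.22 in WT). With the covariate and then without it, the log2 differences of calls that were lost were 0.65 and 0.72 for Col4a1, 0.82 and 0.79 for Col4a2, 0.87 and 1.03 for Col6a3 and -0.32 and -0.32 for Col6a4 between DKO and AKO. Between AKDH and WT they were -0.96 and -0.68 for Col26a1, -0.38 and -0.27 for Col18a1, 0.30 and 0.59 for Col14a1 and -0.12 and -0.23 for Col9a1, so some were as large with it and others smaller. The part of muscle markers was not tested. Cartilage markers, which could bear on Col9a1 and Col11a2, were called lower for 3 of 6 and higher for 1 in AKDH, with a mean of -0.11, -0.090 and 0.17 in AKDH, against -0.037, -0.022 and 0.065 in WT. Epithelium markers were called higher for 2 of 5 in AKDH, with a mean of 0.19, 0.14 and 0.080 in AKDH, against -0.14, -0.061 and 0.068 in WT, and mesothelium markers lower for 1 of 4. Sperm (2 of 5), ovary (2 of 6), bladder urothelium (2 of 4), motile cilia (1 of 5) and small RNA genes (10 of 54) were also called lower in AKDH, and the part of these lists was not tested.

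In AKDH vas 10 collagens were called, 2 higher and 8 lower than WT, or 22.7% of the family, against 24.3% of all genes, 9.57% higher and 14.8% lower. In all 40 of 44 means were below WT, with a median log2 difference of -0.19, against -0.047 over all genes. Col20a1 had -0.29, -0.28 and -0.32 in AKDH, against -0.012, 0.13 and 0.11 in WT (-0.37, SE 0.052, adjusted p = 0.000509), and was called in all 12 other settings run. It was also the only collagen called in AKDH against AKO (-0.26, SE 0.052, adjusted p = 0.0363, with 1.29% of all genes called and 0.848% lower), a call lost without any of the 6 arrays (adjusted p 0.071 to 0.139). Col9a1, a chain of the fibril-associated type IX, had -0.19, -0.23 and -0.034 in AKDH, against 0.11, 0.058 and 0.081 in WT (-0.23, SE 0.060, adjusted p = 0.0153). Col25a1, a transmembrane chain, had -0.29, -0.22 and -0.20 in AKDH, against 0.046, 0.085 and 0.0098 in WT (-0.28, SE 0.074, adjusted p = 0.0177). No WT array reached an AKDH array for these 3 genes. Called or not, 21 of 44 collagens and 41.5% of all genes did not overlap between AKDH and WT vas.

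Col14a1 and Col17a1 were the chains that rose in AKDH vas. Col14a1 had 0.0066, -0.24 and 0.066 on the AKO arrays, 0, -0.35 and -0.23 on the DKO arrays, 0.30, -0.065 and 0.25 on the AKDH arrays and 0.014, 0.22 and -0.27 on the AHDK arrays, against -0.45, -0.12 and -0.71 on the WT arrays (0.59, SE 0.17, adjusted p = 0.0251 in AKDH). All AKDH arrays lay above all WT arrays. Col17a1 had 0.49, -0.018 and 0.16 in AKDH, against -0.24, -0.062 and -0.13 in WT (0.35, SE 0.11, adjusted p = 0.0312), with no overlap. Besides the falls given above, those called were of the fibrillar Col11a2 (-0.26, adjusted p = 0.033), the type IV chain Col4a3 (-0.15, adjusted p = 0.0369) and Col18a1 (-0.27, adjusted p = 0.0416), of which Col18a1 overlapped WT. The count of 10 fell to 3 without AKDH vas replicate 1, to 4 without WT vas replicate 2 and to 5 without WT vas replicate 1 or AKDH vas replicate 2. Without AKDH vas replicate 3, the array with high cilia markers, 8 were called, 7 of them among the 10. Col14a1 was lost without WT vas replicate 1 (0.0642), WT vas replicate 3 (0.0891), AKDH vas replicate 1 (0.0808) and AKDH vas replicate 3 (0.0615), and Col17a1 without WT vas replicate 1 (0.0996), WT vas replicate 2 (0.0507), WT vas replicate 3 (0.0626) and AKDH vas replicate 1 (0.0876). Col9a1 was lost without AKDH vas replicate 1 (0.0526) and AKDH vas replicate 2 (0.0595), and Col25a1 without WT vas replicate 2 (0.0642) and AKDH vas replicate 1 (0.0597). Col11a2, Col4a3 and Col18a1 were each lost without 4 or 5 of the 6 arrays (adjusted p 0.0678 to 0.149).

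Col1a1 and Col3a1 had no called change in vas. Col1a1 had -0.070, -0.34 and -0.020 on the AKO arrays, 0.22, 0 and 0.0095 on the DKO arrays, 0.086, -0.092 and -0.15 on the AKDH arrays and -0.12, 0.52 and 0.015 on the AHDK arrays, against -0.024, 0.042 and -0.36 on the WT arrays, and every mutant overlapped WT. Col3a1 had 0.097, -0.12 and 0.99 on the AKO arrays, 0.33, 0.21 and -0.023 on the DKO arrays, -0.0048, 0 and -0.17 on the AKDH arrays and -0.027, 0.66 and 0.34 on the AHDK arrays, against 0.24, 0.26 and -0.020 on the WT arrays. The third AKO array was the highest of these for Col3a1. Their adjusted p-values against WT lay between 0.469 and 0.991 over the 4 mutants. Col4a1 had 0.12, -0.060 and -0.16 in AKDH and 0.032, 0.87 and 0.032 in AHDK, against 0.52, 0.35 and 0 in WT, and overlapped WT in both. Between AHDK and DKO no collagen was called (limma, 2 collagens and 13.1% of all genes at an unadjusted p below 0.05, 0.366% of all genes called), and Col6a3 (-0.55, adjusted p = 0.329) and Col8a1 (-0.19, adjusted p = 0.34) led.

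**Figure D5:**
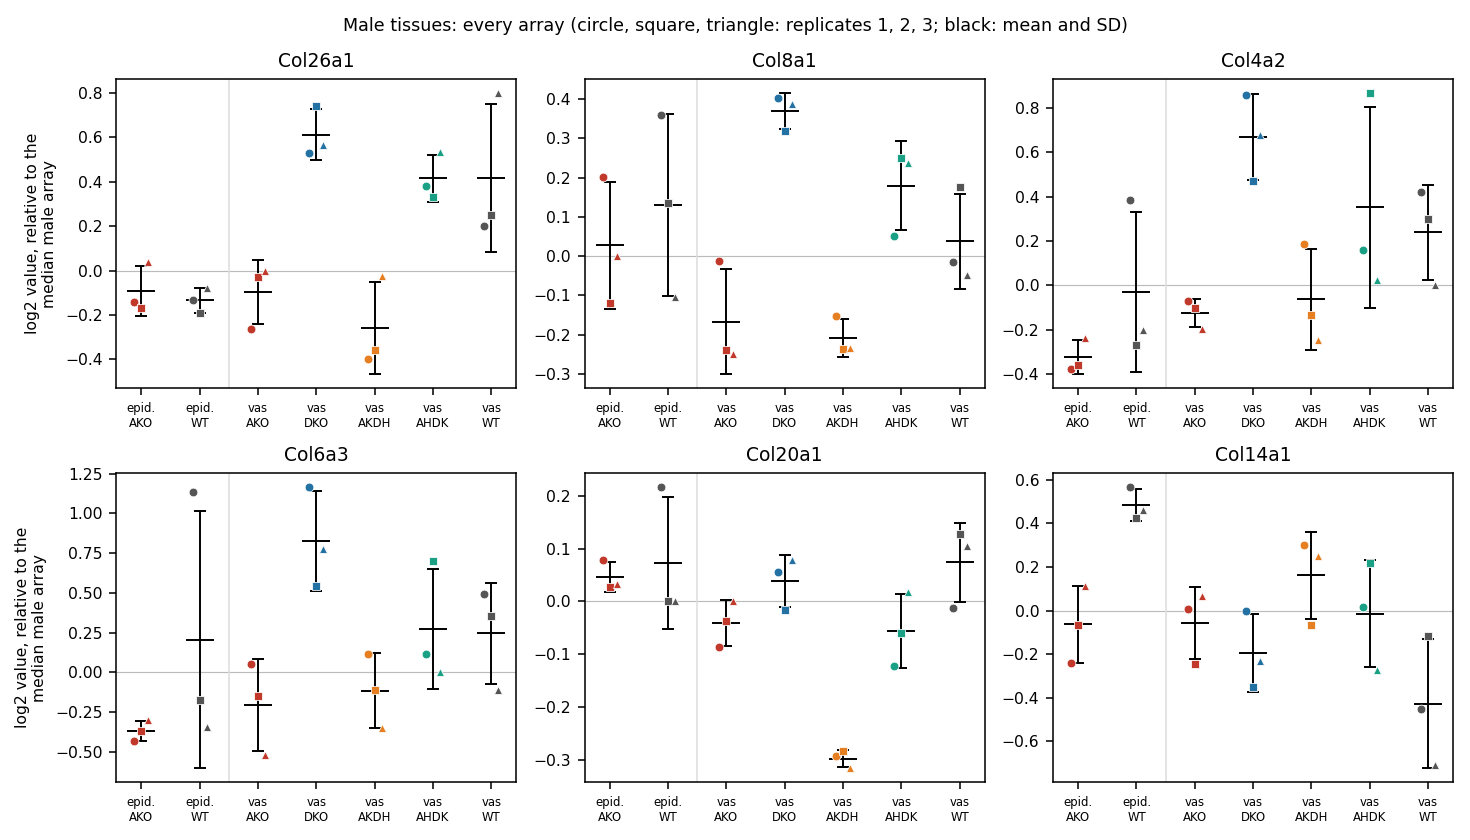
Log2 value on every male array for Col26a1, Col8a1, Col4a2, Col6a3, Col20a1 and Col14a1, with epididymis groups left of vas deferens groups and black bars for the mean and SD of 3 arrays. The DKO vas arrays lie above the AKO vas arrays for Col26a1, Col8a1, Col4a2 and Col6a3, the AKDH vas arrays are lowest for Col20a1, and WT epididymis and WT vas are far apart for Col14a1.

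The largest differences between WT epididymis and WT vas deferens were those of Col12a1 and Col14a1, both fibril-associated chains. Between the WT tissues 4 collagens were called higher in epididymis and 1 lower, or 11.4% of the family, against 28.1% of all genes, 11.2% higher and 16.8% lower. Col12a1, which bridges type I fibrils, had 2.90, 1.20 and 0.91 in WT epididymis, against 0, -0.21 and -0.83 in WT vas (2.01, SE 0.42, adjusted p = 0.00159). Col14a1 had 0.57, 0.42 and 0.46 in WT epididymis, against -0.45, -0.12 and -0.71 in WT vas (0.91, SE 0.16, adjusted p = 0.000314). Both were called in all 11 other settings run, and neither overlapped. Called or not, 14 of 44 collagens and 43.7% of all genes did not overlap between these WT tissues. Col26a1 had -0.13, -0.19 and -0.079 in WT epididymis, against 0.20, 0.25 and 0.80 in WT vas (-0.55, SE 0.14, adjusted p = 0.00578), and was called whichever array was left out. Col10a1, a short-chain collagen known from growth cartilage, had 0.11, 0.24 and 0.31 in WT epididymis, against -0.12, 0.022 and -0.12 in WT vas (0.29, SE 0.095, adjusted p = 0.0279), and Col17a1 had 0.26, 0.13 and 0.10 in WT epididymis, against -0.24, -0.062 and -0.13 in WT vas (0.31, SE 0.10, adjusted p = 0.0359). Col10a1 was lost without WT vas replicate 1 (0.0885), WT vas replicate 3 (0.0851), WT epididymis replicate 2 (0.0753) and WT epididymis replicate 3 (0.108), and Col17a1 without WT vas replicate 1 (0.131), WT vas replicate 3 (0.071), WT epididymis replicate 1 (0.128) and WT epididymis replicate 2 (0.0621), and the count of 5 was 3 without WT vas replicate 1 or 3 or WT epididymis replicate 2. Smooth muscle (8 of 8), adipocyte (4 of 7), skeletal muscle (2 of 6) and epithelium markers (2 of 5) were called lower in epididymis and sperm markers (5 of 5) higher, and their part was not tested.

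Of the stromal chains, Col1a1 had 1.22, 0.25 and 0.0070 and Col3a1 0.66, 0.14 and -0.21 in WT epididymis. Col4a1 had 0.24, -0.28 and -0.47 and Col6a1 0.77, 0.42 and 0.051 in WT epididymis. Replicate 1 was highest in all 4, and none was called against WT vas (adjusted p 0.0637 to 0.941). In AKO tissues Col17a1 had 0.23, 0.36 and 0.52 in AKO epididymis, against 0.12, 0 and -0.11 in AKO vas (0.37, SE 0.10, adjusted p = 0.0249). Col6a6 had -0.22, -0.15 and -0.14 in AKO epididymis, against 0.035, -0.011 and 0.49 in AKO vas (-0.34, SE 0.11, adjusted p = 0.0447), and only 1 of its 2 probe sets was called. These were the only 2 collagens called, with 15.5% of all genes called, 7.15% higher and 8.31% lower. Smooth muscle (8 of 8), adipocyte (6 of 7), fibroblast (4 of 9) and skeletal muscle markers (3 of 6) were called lower in AKO epididymis than in AKO vas, and their part was not tested. With the replicate number as a block Col6a6 was lost (adjusted p = 0.052) and Col12a1 gained. With an array left out the count ran from 0 to 3: Col17a1 was lost without AKO vas replicate 2 (0.0676), AKO vas replicate 3 (0.1) and AKO epididymis replicate 3 (0.118), and Col6a6 without AKO vas replicate 3 (0.198), AKO epididymis replicate 1 (0.113), AKO epididymis replicate 2 (0.0745) and AKO epididymis replicate 3 (0.0871).

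Col14a1 was the collagen for which the effect of AKO differed between epididymis and vas. In epididymis it had -0.24, -0.064 and 0.11 in AKO, against 0.57, 0.42 and 0.46 in WT, so that all AKO arrays were lower (-0.55, SE 0.10, adjusted p = 0.0833). In vas it had 0.0066, -0.24 and 0.066 in AKO, against -0.45, -0.12 and -0.71 in WT (0.37, SE 0.17, adjusted p = 0.213). Neither passed alone, and the difference between them was called (-0.92, SE 0.22, adjusted p = 0.0188, 7.22% of all genes called and 3.25% with a negative difference), with Col14a1 the only collagen. That call was lost without AKO vas replicate 3 (adjusted p = 0.0529) and held without each of the other 11 arrays. With the replicate number as a block 2 collagens were called, Col14a1 and Col26a1. Fibroblast markers had -0.50, -0.47 and -0.31 in AKO epididymis, against -0.33, -0.034 and -0.28 in WT epididymis. They had 0.25, 0.073 and 0.22 in AKO vas, against 0.0030, 0.10 and -0.44 in WT vas. The sperm marker mean was -1.147, -1.012 and -1.005 in AKO epididymis, against 3.439, 2.283 and 2.476 in WT epididymis. The smooth muscle mean was -1.75, -1.28 and -1.97 in AKO epididymis, against -0.16, -0.64 and -0.81 in WT epididymis. Sperm and smooth muscle means were also lower in AKO vas than in WT vas. The part of these lists was not tested.

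Within epididymis limma called no collagen in AKO against WT, with 3 collagens and 16.0% of all genes at an unadjusted p below 0.05, and 0.782% of all genes called. After Col14a1 the smallest adjusted p was that of Col6a1, with -0.41, -0.11 and -0.17 in AKO, against 0.77, 0.42 and 0.051 in WT (-0.64, SE 0.19, adjusted p = 0.186). Col1a1 had -0.16, -0.24 and 0.011 in AKO, against 1.22, 0.25 and 0.0070 in WT, and Col3a1 -0.29, -0.30 and -0.12 in AKO, against 0.66, 0.14 and -0.21 in WT. Col4a1 had -0.40, -0.43 and -0.27 in AKO, against 0.24, -0.28 and -0.47 in WT. The groups did not overlap for Col6a1, and overlapped for the other 3. The sperm and smooth muscle means given above did not overlap between these groups either. The part of these markers in the collagen values was not tested.

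Genes that make, bind or break down collagen were followed as 5 lists: 29 genes of synthesis and processing, 12 receptors, 25 partners of fibrils, 22 partners of basement membranes and 20 of breakdown. In vas AKO against WT, synthesis had 1 higher and 1 lower, receptors 0 higher and 2 lower, fibril partners 1 higher and 1 lower, basement membrane partners 1 higher and 0 lower and breakdown 0 higher and 0 lower, against 9.35% of all genes called (4.91% higher and 4.44% lower). In vas AKDH synthesis had 1 higher and 3 lower, receptors 0 higher and 4 lower, fibril partners 2 higher and 1 lower, basement membrane partners 4 higher and 1 lower and breakdown 1 higher and 3 lower, against 24.3% of all genes called (9.57% higher and 14.8% lower). Both were tested against the same WT arrays.

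The receptor Itga2, the alpha chain of a collagen-binding integrin, had the largest differences of the called partners in vas. Its values were 0, 0.77 and -0.42 on the AKO arrays, 2.83, 3.09 and 3.03 on the DKO arrays, -0.11, -0.44 and -0.41 on the AKDH arrays and 1.85, 2.23 and 2.82 on the AHDK arrays, against 2.80, 2.90 and 2.95 on the WT arrays. It fell in AKO (-2.76, SE 0.27, adjusted p = 0.000193) and in AKDH (-3.20, SE 0.27, adjusted p = 2.85e-05), and DKO stood above AKO (2.86, SE 0.27, adjusted p = 0.000151). AKO and AKDH lay far under the other 3 genotypes with no overlap. In epididymis Itga2 had -0.97, -1.04 and -0.86 in AKO, against -1.10, -1.23 and -1.19 in WT, and the effect of AKO differed between epididymis and vas (2.98, SE 0.34, adjusted p = 0.000101). Adgrg1, an adhesion receptor that binds type III collagen, also fell in vas AKO (-0.51, adjusted p = 0.00136) and AKDH (-0.65, adjusted p = 0.000135).

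P4ha3, a subunit of the enzyme that hydroxylates collagen prolines, fell in vas AKO (-0.65, adjusted p = 0.00227), AKDH (-0.77, adjusted p = 0.000328) and AHDK (-0.48, adjusted p = 0.023). Pcolce2, an enhancer of procollagen trimming, rose in the same 3 mutants (0.79, adjusted p = 0.0069 in AKO, 0.72, adjusted p = 0.00567 in AKDH and 0.75, adjusted p = 0.0192 in AHDK). Thbs1, a matricellular protein of fibrils, fell in AKO (-1.19, adjusted p = 0.000691) and AKDH (-1.41, adjusted p = 0.00011), whereas its relative Thbs2 rose in AKDH (0.58, adjusted p = 0.000232) and AHDK (0.40, adjusted p = 0.0112). Smoc1, a calcium-binding protein of basement membranes, rose in AKO (1.12, adjusted p = 0.00131), AKDH (1.29, adjusted p = 0.000232) and AHDK (0.69, adjusted p = 0.034). The calls in AKO and AKDH of P4ha3, Pcolce2, Thbs1, Smoc1, Itga2 and Adgrg1 held whichever array was left out. Under the 6 other settings run, Pcolce2 was called in 5 in AKO, in AKDH and in AHDK, and Thbs2 in 5 in AKDH and in AHDK. Adipocyte markers were also called higher in the 3 mutants in which Pcolce2 rose, and the smooth muscle mean was lower in AKO and AKDH than in WT. The part of these markers in the partner calls was not tested. In AHDK, P4ha3 was lost without WT vas replicate 2 (0.0749), WT vas replicate 3 (0.0595), AHDK vas replicate 1 (0.0769) and AHDK vas replicate 3 (0.0706), Smoc1 without WT vas replicate 2 (0.0891), WT vas replicate 3 (0.0597), AHDK vas replicate 1 (0.0748) and AHDK vas replicate 2 (0.0871), Pcolce2 without WT vas replicate 2 (0.0848) and AHDK vas replicate 2 (0.0543) and Thbs2 without WT vas replicate 2 (0.0508).

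In DKO vas, where 5.87% of all genes were called, 1 gene of synthesis fell, the prolyl isomerase Ppib (-0.26, adjusted p = 0.0363), and 1 fibril partner and 1 basement membrane partner rose, Fbln2 (0.56, adjusted p = 0.0372) and the laminin chain Lama5 (0.46, adjusted p = 0.0486). Fbln2 and Lama5 were lost without any of the 6 arrays (adjusted p 0.0604 to 0.137 and 0.0655 to 0.171) and Ppib without 5 of them (adjusted p 0.0503 to 0.132). In epididymis AKO, where 0.782% of all genes were called, only Fkbp14, a collagen chaperone, was called (-0.61, adjusted p = 0.0239), and it was lost without 4 of the 6 arrays (adjusted p 0.0924 to 0.112).

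In DKO against AKO vas, synthesis had 2 higher and 3 lower, receptors 5 higher and 0 lower, fibril partners 2 higher and 1 lower, basement membrane partners 5 higher and 1 lower and breakdown 2 higher and 0 lower, against 17.8% of all genes called (11.4% higher and 6.37% lower). Besides Itga2, the integrin chain Itga1 was higher in DKO, with 1.93, 1.34 and 1.83, against -0.049, -0.012 and -0.80 in AKO (1.99, adjusted p = 0.00491). P4ha3 (0.75, adjusted p = 0.000671) and Thbs1 (1.09, adjusted p = 0.000761) were higher too, as were the basement membrane genes Smoc2 (1.29, adjusted p = 0.00877), Frem2 (0.70, adjusted p = 0.00695) and the laminin chain Lamb2 (0.70, adjusted p = 0.00775). Ppib was lower in DKO (-0.30, adjusted p = 0.00685). These calls held whichever array was left out. In AHDK vas against WT, synthesis had 1 higher and 1 lower, receptors 0 higher and 0 lower, fibril partners 1 higher and 0 lower, basement membrane partners 1 higher and 0 lower and breakdown 0 higher and 0 lower, against 4.15% of all genes called (2.08% higher and 2.07% lower).

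In uterus AKDH, synthesis had 1 higher and 1 lower, receptors 0 higher and 1 lower, fibril partners 2 higher and 0 lower, basement membrane partners 0 higher and 1 lower and breakdown 1 higher and 0 lower, against 6.58% of all genes called (3.93% higher and 2.65% lower). P3h2, which hydroxylates prolines of type IV collagen, rose (1.03, adjusted p = 0.0194), and Pxdn, the peroxidase that crosslinks type IV collagen, fell (-0.94, adjusted p = 0.0196). Smoc2 fell (-1.30, adjusted p = 0.0133) and the proteoglycan Podn rose (0.91, adjusted p = 0.00889), and both calls held whichever array was left out. P3h2 was lost without WT uterus replicate 1 (0.0546), and Pxdn without WT uterus replicate 1 (0.0517) and WT uterus replicate 2 (0.0614). Smoc2 had -0.43, -0.66 and -0.14 on the AKO arrays, 1.37, 1.85 and 1.57 on the DKO arrays, -0.89, 0.11 and 0 on the AKDH arrays and -0.063, -0.021 and 0.19 on the AHDK arrays, against 0.67, 1.14 and 1.32 on the WT arrays. It was called lower in AHDK too (-1.01, adjusted p = 0.049) and higher in DKO than in AKO (2.01, adjusted p = 0.00923). The AHDK call was lost without WT uterus replicate 2 (0.0966), WT uterus replicate 3 (0.147), AHDK uterus replicate 1 (0.189), AHDK uterus replicate 2 (0.0899) and AHDK uterus replicate 3 (0.106), and the DKO call was lost without AKO uterus replicate 1 (0.0674). In uterus DKO and AHDK the inhibitory collagen receptor Lair1, a leukocyte protein, rose (0.69, adjusted p = 0.0397 in DKO and 0.69, adjusted p = 0.0207 in AHDK). The DKO call was lost without any of the 6 arrays (adjusted p 0.0645 to 0.125) and the AHDK call without 4 (adjusted p 0.0518 to 0.103). Macrophage markers had 1.11, 0.32 and 0.61 in DKO and 1.11, 0.95 and 0.56 in AHDK, against -0.32, -0.50 and -0.093 in WT, and their part was not tested.

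In WT oviduct against WT uterus, synthesis had 2 higher and 6 lower, receptors 1 higher and 2 lower, fibril partners 2 higher and 2 lower, basement membrane partners 2 higher and 2 lower and breakdown 2 higher and 5 lower, against 23.9% of all genes called (14.5% higher and 9.39% lower). Colgalt1, which adds galactose to collagen, was lower in oviduct (-0.86, adjusted p = 0.000175), as was Pxdn (-1.20, adjusted p = 0.000445). P3h2 (1.28, adjusted p = 0.000271), the collagen receptor kinase Ddr1 (1.19, adjusted p = 0.000205), the protease inhibitor Timp4 (6.15, adjusted p = 4.80e-14) and the collagenase Mmp8 (2.96, adjusted p = 2.18e-05) were higher in oviduct. Timp4 had 6.10, 5.85 and 6.25 in WT oviduct, against 0.053, -0.24 and -0.090 in WT uterus. These 6 calls held whichever array was left out. In WT epididymis against WT vas, synthesis had 2 higher and 3 lower, receptors 0 higher and 6 lower, fibril partners 2 higher and 3 lower, basement membrane partners 7 higher and 0 lower and breakdown 1 higher and 4 lower, against 28.1% of all genes called (11.2% higher and 16.8% lower). Itga2 (-4.06, adjusted p = 7.69e-09), P4ha2 (-1.52, adjusted p = 0.000145) and the small matrix protein Dpt (-1.48, adjusted p = 0.00115) were lower in epididymis, and Frem1 (1.07, adjusted p = 3.20e-06), a basement membrane protein that binds Fras1, was higher. Their calls held whichever array was left out.

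Between AKO tissues, oviduct against uterus had 1 higher and 4 lower in synthesis, 1 higher and 4 lower among receptors, 0 higher and 2 lower among fibril partners, 1 higher and 5 lower among basement membrane partners and 2 higher and 7 lower in breakdown, against 17.8% of all genes called (10.7% higher and 7.09% lower). Timp4 (5.86, adjusted p = 8.71e-14), Mmp8 (3.27, adjusted p = 7.31e-06) and Ddr1 (1.14, adjusted p = 0.000384) were again higher in oviduct and Colgalt1 lower (-0.73, adjusted p = 0.00103). AKO epididymis against AKO vas had 1 higher and 2 lower in synthesis, 0 higher and 5 lower among receptors, 0 higher and 8 lower among fibril partners, 5 higher and 2 lower among basement membrane partners and 0 higher and 3 lower in breakdown, against 15.5% of all genes called (7.15% higher and 8.31% lower). Of the fibril partners, the adhesive glycoprotein Fn1 (-1.71, adjusted p = 0.00146) and the small proteoglycans Aspn (-1.48, adjusted p = 0.00226) and Prelp (-0.91, adjusted p = 0.00306) were lower in epididymis. In uterus AKO and oviduct AKO limma called no partner. At an unadjusted p below 0.05 the 5 lists had 3, 2, 6, 2 and 0 genes in uterus AKO, and 3, 1, 0, 2 and 1 in oviduct AKO, in the order of the lists above, against 9.35% and 3.05% of all genes. The named calls between AKO tissues held whichever array was left out.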

How the data were processed

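RNA of 42 tissue samples was hybridised to Affymetrix whole-transcript arrays, per the labels. The authors deposited 1 value per probe set and array, taken here as log2 values. Of the log base, the normalisation and the array's genome build, the sources used here say nothing. From the values, each probe set is centred on a median of 0 over the 21 female and the 21 male arrays, so a floor or detection limit cannot be set. Array medians lay between -0.054 and 0.037. No value column was left unused (0).

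Probe sets were named from GEO's platform annotation: 21789 had 1 symbol, 1621 had several and 5446 had none, and only the first kind was used. Probe sets of a gene were averaged, which gave 19938 genes. Groups were taken from the titles. Comparisons within a tissue came from limma 3.58.1 in R 4.3.3 fitted on all arrays of that tissue, and contrasts between tissues from a fit on all 21 arrays of the sex, so that the groups of a fit share 1 estimate of the spread. P-values were adjusted over all genes by Benjamini-Hochberg, with a threshold of 0.05, and a gene that passed is called. With 3 arrays against 3 an exact permutation test of a single gene cannot go below p = 0.1, so none was used. On simulated data with 200 changed genes, the uterus AKDH fit recovered 80.8% of those changed by 1 on the log2 scale and the WT epididymis against vas fit 92.9%. The changed genes were drawn from all genes and the noise was independent between genes, unlike that of these arrays. In uterus the median SE was 0.175 for collagens and 0.1145 for all genes, so these shares do not give the recovery for the family.

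Any called collagen could be named. Values on every array were given for up to 6 called genes of a comparison with the smallest adjusted p and no overlap, and for Col1a1, Col3a1, Col4a1 and Col6a1. Absence of overlap among the former was thus fixed by the choice and is not a result. Where none was called, the 2 with the smallest adjusted p were named, and of each partner list up to 3 genes a comparison. Eif2s3y, Xist and the 8 interstitial collagens were chosen after their values were seen. The members and lists were chosen with earlier results of these data known.

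Same-numbered arrays met a rule for pairing, that all 3 of their correlations exceed 0.1, in 4 of 20 comparisons. These were oviduct AKO against WT, oviduct against uterus in AKO, and epididymis against vas in WT and in AKO. With 3 arrays a group, 1 array far from the others in both groups can meet this rule. The rule therefore does not establish that samples were linked. Alternatives were quantile normalisation, single probe sets, a filter on spread above the 25th percentile, the replicate number as a block, and leaving out each array, or together WT oviduct replicate 2, AKDH vas replicate 3 and AKO epididymis replicate 1, a choice taken from an earlier look at these data. Covariates for the small RNA and adipocyte means were added after seeing the data. Some listed genes were not analysed here.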

Additional observations from a re-analysis of the deposited data

Results flagged for a closer look

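The effect of AKO differed between epididymis and vas, by limma's test of that difference, for Col14a1 and for 6 of the partner genes. Col14a1 differed by -0.92, with an effect of -0.55 in epididymis and 0.37 in vas. P4ha3 differed by 0.71 (adjusted p = 0.00428), with 0.066 in epididymis and -0.65 in vas. Pcolce2 differed by -0.88 (adjusted p = 0.0469), with -0.084 in epididymis and 0.79 in vas. Itga2 differed by 2.98, with 0.21 in epididymis and -2.76 in vas. Adgrg1 differed by 1.00 (adjusted p = 0.000269), with 0.49 in epididymis and -0.51 in vas. Mfap5, a microfibril protein and one of the fibroblast markers, differed by -1.0 (adjusted p = 0.0261), with -0.50 in epididymis and 0.50 in vas. Smoc1 differed by -1.64 (adjusted p = 0.00164), with -0.52 in epididymis and 1.12 in vas. The calls of P4ha3, Itga2, Adgrg1 and Smoc1 held without each of the 12 arrays in turn. Mfap5 kept its call in 6 of these 12 fits and Pcolce2 in 3. Groups of 3 are too small for a search for single outlying arrays.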

How the results depend on the processing

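Counts of collagens called that moved by over 1.5 times are given here for each setting. Under quantile normalisation they were 0 in vas DKO, 4 in vas AKDH, 0 in vas AKDH against AKO, 7 in WT oviduct against uterus, 1 in AKO oviduct against uterus, 2 in WT epididymis against vas, 1 in AKO epididymis against vas and 0 for the AKO effect in epididymis minus vas. With single probe sets they were 2 in uterus AKDH and 1 in uterus AHDK. With the filter on spread they were 1 in uterus AHDK, 1 in vas AKO, 0 in vas AKDH against AKO and 7 in AKO oviduct against uterus. With the replicate block they were 1 in vas AKO, 0 in vas DKO, 0 in vas AKDH against AKO and 2 for the AKO effect in epididymis minus vas. The 4 comparisons that met the pairing rule kept their counts within 1.5 times. In every comparison the labels give samples no link beyond that number. Without the 3 arrays left out together they were 1 in vas AKO, 0 in vas AKDH against AKO and 1 in AKO epididymis against vas. With the small RNA covariate, added after seeing the data, the count was 0 in uterus AKDH, Col20a1 turned to 0.086 in uterus DKO and 0.039 in uterus AHDK, and Timp3 to -0.081 in uterus AKDH. With the adipocyte covariate, also added later, the counts were 0 in vas DKO, 1 in vas AKDH, 2 in vas DKO against AKO and 0 in vas AKDH against AKO, and Timp4 turned to -0.10 in vas AKDH. The cause of these moves was not tested. With each array left out in turn the counts ran from 0 to 2 in uterus AKDH and in uterus AHDK, 0 to 1 in vas AKO and in vas DKO, 3 to 8 in vas AKDH, 3 to 5 in vas DKO against AKO, 0 to 0 in vas AKDH against AKO, 2 to 13 in WT oviduct against uterus, 0 to 2 in AKO oviduct against uterus, 3 to 5 in WT epididymis against vas, 0 to 3 in AKO epididymis against vas and 0 to 1 for the AKO effect in epididymis minus vas, and stayed at 0 in the other 10 comparisons. Of 347 values of named collagens under the other settings, 287 kept direction and side of the threshold, 53 lost their call, 5 gained one and 2 reversed. Of 408 such values with 1 array left out, 290 kept both, 115 lost their call, 3 gained one and 0 reversed. For named partners, 592 of 670 values under the other settings kept both, 76 lost their call and 2 reversed. With 1 array left out, 601 of 786 partner values kept both and 185 lost their call. Genes uncalled in both fits count as kept. Centring hides the distance of a gene from background, so weak probe sets could not be told from strong ones.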
